A study of Homo sapiens with 8 samples.

Results

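Oxidative phosphorylation is the process by which mitochondria turn electrons from food into ATP. Complexes I and II pass electrons from NADH and succinate to coenzyme Q, complex III hands them on to cytochrome c, and complex IV gives them to oxygen. Complexes I, III and IV pump protons across the inner membrane, and complex V, the ATP synthase, lets the protons flow back through its membrane ring (Fo) and drives its catalytic head (F1). Most of the subunits are encoded in the nucleus, and their messenger RNAs are abundant in cells that rely on respiration.

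The genes described here were those whose platform symbol begins with NDUFA, NDUFB, NDUFC, NDUFS, NDUFV, UQCR, ATP5 or COX4 to COX8, or is SDHA, SDHB, SDHC, SDHD or CYC1. The symbols matched 130 probes of 94 genes. A gene was kept if the detection p of a probe was below 0.01 on 2 or more of the 8 arrays. This left 84 of the 10805 genes with a tested and named probe, and each was read from its brightest probe. Of the 84 genes, 71 are structural subunits (33 of complex I, 3 of complex II, 8 of complex III, 10 of complex IV and 17 of complex V). The other 13 are 9 assembly factors, the complex V inhibitor ATP5IF1 and 3 copies of subunit genes (ATP5F1EP2, UQCRBP1 and UQCRHL). The symbol rule used no measured level beyond detection.

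Expression was measured on Illumina BeadChips in adherent Caco-2 cells, a human colorectal cancer line with epithelial features, in 4 groups of 2 arrays each. ESRP1-overexpressing cells carried a pLX304 lentivirus with the ESRP1 open reading frame, and Empty controls carried the vector alone. ESRP1-silenced cells carried a PLKO.1 lentivirus with a short hairpin against ESRP1, and Scr controls a scrambled hairpin. ESRP1 is an epithelial regulator of splicing, and the arrays addressed how transcript levels differ when it is raised or lowered. All 4 groups were transduced lines. A single hairpin, sh4, is given for the ESRP1-silenced arrays, and its own effects and the loss of ESRP1 cannot be told apart. The labels do not say that the arrays of a group came from separate cultures, and the spread behind every p-value is therefore that between arrays, which may be technical.

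The 4 arrays of each comparison lay on 1 chip. Arrays of ESRP1-overexpressing and Empty cells had median signals of 167.1 to 184.7 and 15153 to 15627 detected probes, and arrays of ESRP1-silenced and Scr cells had median signals of 192.6 to 227.3 and 16966 to 17535 detected probes. Between the chips, line and chip cannot be told apart. The ESRP1 probe had a log2 fold change of 1.77 in ESRP1-overexpressing cells (adjusted p = 0.0038 from limma). It was not detected on either ESRP1-silenced array and was at least 3.09-fold lower than in Scr cells. The fitted log2 fold change, which uses these undetected values, was -1.91 (adjusted p = 0.047 from limma). This call was lost when any 1 array was left out (log2 fold changes of -2.06 to -1.77). Of 14 colon epithelial markers, 8 were detected on all 8 arrays, among them EPCAM, VIL1 and CDX2, while CDX1, LGALS4 and FABP1 were detected on none. Of the markers of other cell types, 2 of 8 for fibroblasts, 0 of 5 for endothelium and 3 of 6 measured for leukocytes were detected on all arrays, namely PDGFRA, PDGFRB, CD68, CD14 and LYZ. COL3A1, DCN, CDH5, VWF, PTPRC and CD3E were detected on none. Of 6 brown fat or muscle markers, ACTA1 was detected on all arrays and the other 5 on none.

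Nearly all of the oxidative phosphorylation genes were measured well above background in every group. Of the 84 genes, 83 were detected on all 8 arrays. The exception was NDUFV3, a small accessory subunit of complex I, whose brightest probe was detected on the 4 arrays of ESRP1-silenced and Scr cells and on none of the other chip, the chip with the lower signals. Its second probe was detected only on both Empty arrays, so the probes of NDUFV3 disagree. The 10 genes that did not pass the filter included NDUFA5 and NDUFB4, accessory subunits of complex I with at most 1 detected array per probe (1 ESRP1-silenced array in both), and NDUFS6 and NDUFB2-AS1, which were detected on none.

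The other 6 genes that did not pass were all variant isoforms of complex IV subunits. COX4I2, COX6A2, COX6B2, COX7A1, COX7B2 and COX8C, which are known from lung, heart and muscle or testis, were detected on 0 of the 8 arrays. Their ubiquitous counterparts COX4I1, COX6A1, COX6B1, COX7A2, COX7B and COX8A were each detected on all 8. The same held for a pair outside the symbol rule: COXFA4, known earlier as NDUFA4, was detected on all 8 arrays, and COXFA4L2, its hypoxia-induced relative, on none. The lowest detection p of the 6 variant isoforms over all arrays was 0.16, that of COX7B2. ESRP1-overexpressing, Empty, ESRP1-silenced and Scr cells showed the same pattern of detected and undetected complex IV isoforms. Each variant isoform but COX6B2 was read from 1 probe, and whether these probes can detect their genes was not tested. Probes of the complex I subunits NDUFS6 and NDUFB4 also stayed undetected on most or all arrays.

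**Figure D1:**
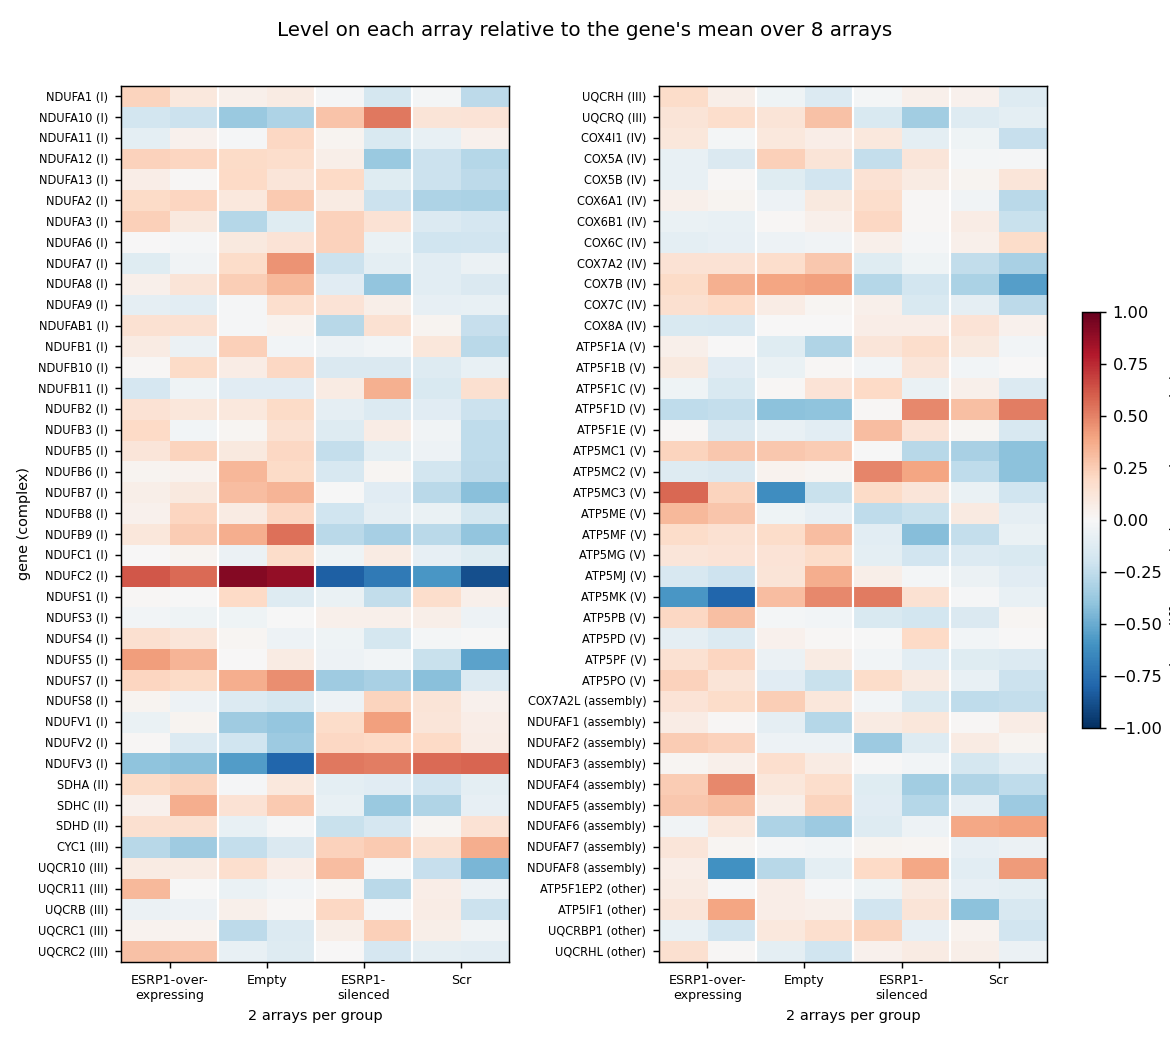
Each cell gives the normalized log2 level of 1 of the 84 genes on 1 array minus the gene's mean over the 8 arrays, with genes in rows (complex in brackets), the 2 arrays of each group side by side in columns, and red for higher and blue for lower. Most rows are pale. Among the strongest colours are those of NDUFC2, which differs between the chips, and NDUFV3, which was not detected on the ESRP1-overexpressing and Empty arrays. Those of ATP5MK and ATP5MC3, which differ between ESRP1-overexpressing and Empty cells, are also among them. Other rows differ between the chips as well, such as COX7B (by 0.67).

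In ESRP1-overexpressing cells most of these genes were close to their level in Empty controls. The RNA was from bulk cells, so a level per cell and a share of cells cannot be told apart. A call here means an adjusted p under 0.05 from limma, with Benjamini-Hochberg adjustment over all 18231 tested probes. In ESRP1-overexpressing against Empty cells 1 of the 84 genes rose (ATP5MC3) and 1 fell (ATP5MK), both of them membrane subunits of the ATP synthase, and 82 did not pass. That is 2 of 84, where 8.07% of all genes tested were called. Before adjustment, 10 of the 84 had a p under 0.05 and a higher level and 3 a lower one, which is 15.5% against 26.8% of all genes tested. The median log2 fold change of the 84 genes was 0.0026, beside 0.00035 for all genes, and 43 of 84 were higher.

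The log2 fold changes of these genes also spanned a narrower range than those of the array as a whole. Their lower and upper quartiles were -0.11 and 0.18, beside -0.22 and 0.23 for all genes. The median size of the log2 fold change was 0.14 for the 84 genes and 0.23 for all genes tested. The 95% confidence interval of the fold change stayed within 1.5-fold of no change for 67 of the 84 genes (79.8%), and for 45.0% of all genes. The standard errors were smaller too, with a median of 0.12 beside 0.15 for all genes. The median log2 level of the 84 genes was 13.22 to 13.35 on these arrays, while the genes tested included dim ones. The parts that standard error and brightness play in the narrower range were not tested.

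**Figure D2:**
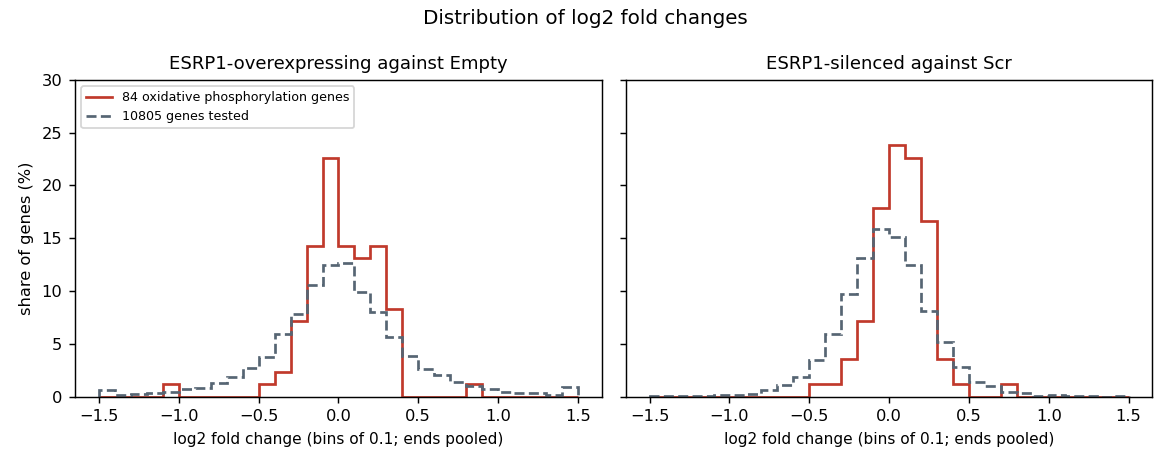
The share of genes (vertical axis, percent) falls in bins of 0.1 of the log2 fold change (horizontal axis), for the 84 oxidative phosphorylation genes (solid red) and for the 10805 genes tested (dashed grey), with ESRP1-overexpressing against Empty on the left and ESRP1-silenced against Scr on the right. The members sit in a narrower peak than all genes in both panels, and on the right their peak lies above 0, where 58 of the 84 genes were higher.

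ATP5MK was the gene that fell. It encodes a very small membrane protein, also known as DAPIT, that sits in the Fo part of the ATP synthase and helps hold the enzyme's dimers together. Its normalized log2 level was 9.25 and 9.04 on the ESRP1-overexpressing arrays and 10.14 and 10.32 on the Empty arrays. On the other chip it was 10.36 and 9.99 in ESRP1-silenced cells and 9.82 and 9.77 in Scr cells. Both ESRP1-overexpressing arrays were below the other 6 arrays. The group means were 9.15 ± 0.15 in ESRP1-overexpressing and 10.23 ± 0.12 in Empty cells (SD, n = 2 arrays), which is 2.12-fold lower in ESRP1-overexpressing cells (log2 fold change -1.08, standard error 0.16, 95% confidence interval -1.46 to -0.70, adjusted p = 0.013 from limma). The call was lost on leaving out ESRP1-overexpressing replicate 1 (adjusted p = 0.051), ESRP1-overexpressing replicate 2 (adjusted p = 0.072) or Empty replicate 2 (adjusted p = 0.055), with log2 fold changes of -1.19, -0.98 and -0.996. In a fit of only the 4 arrays of the comparison its adjusted p was 0.066.

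ATP5MC3 was the gene that rose. It is 1 of 3 genes, with ATP5MC1 and ATP5MC2, that encode the same mature c subunit of the Fo proton ring behind different import sequences. Its log2 level was 9.89 and 9.53 on the ESRP1-overexpressing arrays and 8.69 and 9.08 on the Empty arrays, and 9.51 and 9.43 in ESRP1-silenced cells and 9.24 and 9.11 in Scr cells. The Empty arrays were below the other 6 arrays, although Empty replicate 2 and Scr replicate 2 differed by only 0.03. ATP5MC3 was 1.77-fold higher in ESRP1-overexpressing cells (log2 fold change 0.82, standard error 0.18, 95% confidence interval 0.39 to 1.25, adjusted p = 0.043 from limma). When 1 array was left out the call held only without Empty replicate 2 (log2 fold change 1.02, adjusted p = 0.048) and was lost without any of the other 7 (0.63 to 1.00, adjusted p 0.071 to 0.18). Its adjusted p was 0.11 without a detection filter and 0.14 in a fit of only the 4 arrays.

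The other genes for the c subunit did not follow ATP5MC3. ATP5MC1 was at 13.51 and 13.56 in ESRP1-overexpressing cells and at 13.56 and 13.54 in Empty cells, which overlapped, with a log2 fold change of -0.01 (95% confidence interval -0.32 to 0.29). ATP5MC2 was at 12.77 and 12.76 in ESRP1-overexpressing cells and at 12.93 and 12.92 in Empty cells. The arrays of ATP5MC2 did not overlap, and its log2 fold change of -0.17 (95% confidence interval -0.43 to 0.10, adjusted p = 0.405 from limma) did not pass the test. Since these levels come from different probes, they do not say which of the 3 genes gave the most messenger RNA.

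**Figure D3:**
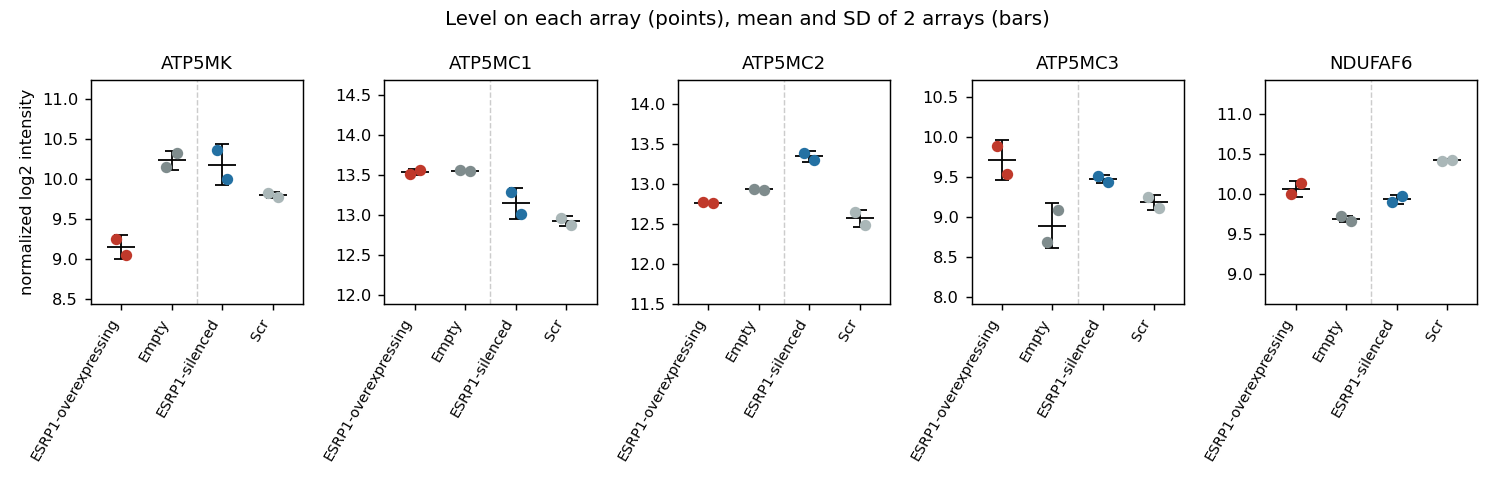
Normalized log2 intensity (vertical axis) is shown for 5 genes in ESRP1-overexpressing, Empty, ESRP1-silenced and Scr cells (horizontal axis), with 1 point per array and the mean and SD of the 2 arrays as bars; the dashed line separates the chips and each panel spans the same log2 range. ATP5MK is lowest in ESRP1-overexpressing cells, ATP5MC3 is lowest in Empty cells, ATP5MC2 is highest in ESRP1-silenced cells, and NDUFAF6 is highest in Scr cells.

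The promoters of 3 of these ATP synthase genes are shown because genes for the same c subunit, and ATP5MK beside them, had different array patterns. The promoter of ATP5MC3 is not shown here. Each sequence is the 250 bases before the transcription start in RefSeq (build GRCh38.p14), with matches to the motifs searched in capitals. ATP5MC1 lies on chromosome 17 (chr17:48892537-48892786, plus strand) and holds a CRE motif, TGACGTCA, that ends 49 bases before the start. ATP5MC2 lies on chromosome 12 (chr12:53676331-53676580, minus strand, the most upstream of 3 windows) and holds an NRF1 motif, GCGCATGC, that ends 50 bases before the start. ATP5MK lies on chromosome 10 (chr10:103396476-103396725, minus strand) and holds an ETS motif, CCGGAAGT, and 2 SP1 motifs, GGGCGG.
ATP5MC1: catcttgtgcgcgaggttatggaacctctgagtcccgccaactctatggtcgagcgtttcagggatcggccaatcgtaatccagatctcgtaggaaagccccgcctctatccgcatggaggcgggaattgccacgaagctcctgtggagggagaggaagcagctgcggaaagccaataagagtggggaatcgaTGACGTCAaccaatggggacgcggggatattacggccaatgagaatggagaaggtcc
ATP5MC2: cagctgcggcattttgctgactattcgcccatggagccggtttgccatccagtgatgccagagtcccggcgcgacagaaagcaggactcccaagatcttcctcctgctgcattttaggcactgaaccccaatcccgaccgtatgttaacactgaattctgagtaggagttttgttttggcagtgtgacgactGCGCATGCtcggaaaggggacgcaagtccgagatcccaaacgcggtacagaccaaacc
ATP5MK: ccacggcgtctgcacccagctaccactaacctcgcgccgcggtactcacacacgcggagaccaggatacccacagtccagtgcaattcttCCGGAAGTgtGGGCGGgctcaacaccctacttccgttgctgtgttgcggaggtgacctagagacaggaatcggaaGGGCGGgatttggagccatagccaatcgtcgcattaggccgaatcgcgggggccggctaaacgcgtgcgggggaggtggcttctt

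Over the genes as a whole, the promoter table held 84 windows of 300 bases (250 before and 50 after the start) for 68 of the 84 genes. The NRF1 motif, the letters bound by nuclear respiratory factor 1, stood on either strand in 15.5% of these windows, in 4.95% of 12623 windows of all tested genes and in 3.05% of all 35116 windows. A YY1 motif, AAGATGGCG, stood in 13.1% of the members' windows, 3.41% of the tested genes' windows and 1.75% of all. For the ERR motif, AAGGTCA, the shares were 8.33%, 2.73% and 3.92%, and for the ETS motif 14.3%, 7.68% and 4.14%. The CRE motif was in 4.76%, 2.88% and 1.85%, and the short SP1 motif in 63.1%, 65.8% and 45.0%. These are matches of letters, and binding was not measured.

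By complex, the subunits of ESRP1-overexpressing cells stayed near the level of Empty cells. Over all genes tested 8.07% were called, so most of these small sets would hold few calls or none at that share. The counts by complex and role therefore do not show that the complexes differ. In complex I, 0 of 33 subunits were called, the median log2 fold change was -0.02, and the values ran from -0.39 (NDUFA7, an accessory subunit, adjusted p = 0.12 from limma) to 0.37 (NDUFA3, another accessory subunit, adjusted p = 0.11). The 6 core subunits measured, most of which carry the flavin or iron-sulphur centres, had a median of 0.06. Among them NDUFS1, the largest subunit of the complex, was at 8.60 and 8.58 in ESRP1-overexpressing and 8.78 and 8.46 in Empty cells, which overlapped.

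Complex II, which is also an enzyme of the citric acid cycle, was measured through 3 subunits, none of them called. SDHA, which holds the flavin, had a log2 fold change of 0.16 (95% confidence interval -0.10 to 0.42), SDHC, a membrane anchor, 0.00016 (-0.40 to 0.40), and SDHD, the other anchor, 0.20 (-0.06 to 0.46). SDHB is not analysed here. In complex III 0 of 8 subunits were called and the median was 0.09. The highest was UQCRC2, a large matrix-side subunit, at 11.72 and 11.71 in ESRP1-overexpressing and 11.35 and 11.30 in Empty cells. These arrays did not overlap, and the log2 fold change of 0.39 gave an adjusted p of 0.088 from limma. The lowest was CYC1, the cytochrome c1 that passes electrons to cytochrome c, at -0.13 (95% confidence interval -0.42 to 0.16).

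In complex IV 0 of 10 subunits were called, the median was -0.06, and 3 of 10 were higher in ESRP1-overexpressing cells. The values ran from -0.29 for COX5A to 0.13 for COX7C, both subunits that surround the catalytic core. The ubiquitous isoforms lay between -0.17 (COX8A) and 0.01 (COX6A1), with COX4I1 at -0.04, COX7A2 at -0.08, COX6B1 at -0.10 and COX7B at -0.13.

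Complex V held both calls among its 17 subunits (11.8%, beside 8.07% of all genes tested), with a median of 0.02. All 5 subunits of the catalytic head were uncalled, between -0.17 and 0.24. Of the 12 subunits of the Fo part and the stalks, 10 were uncalled. After ATP5MK, the lowest was ATP5MJ, the other very small Fo membrane protein, which was named after its values were seen. It stood at 10.69 and 10.65 in ESRP1-overexpressing and 10.98 and 11.22 in Empty cells (log2 fold change -0.43, adjusted p = 0.085 from limma). After ATP5MC3 the highest was ATP5ME, subunit e of the dimer interface. Its levels were 14.61 and 14.56 in ESRP1-overexpressing and 14.24 and 14.20 in Empty cells (log2 fold change 0.36, adjusted p = 0.11 from limma). A further ATP5ME probe, detected on all 8 arrays, gave 0.15 (adjusted p = 0.67 from limma).

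Among the 9 assembly factors, which help build the complexes and are not part of them, 0 were called and the median was 0.14. The highest was NDUFAF6, a factor for complex I, at 0.37 (adjusted p = 0.094 from limma), and the lowest NDUFAF3, another complex I factor, at -0.09 (adjusted p = 0.65). The copies ATP5F1EP2, UQCRBP1 and UQCRHL lay between -0.27 and 0.23, and their probes may share signal with ATP5F1E, UQCRB and UQCRH, so they are uncertain.

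**Figure D4:**
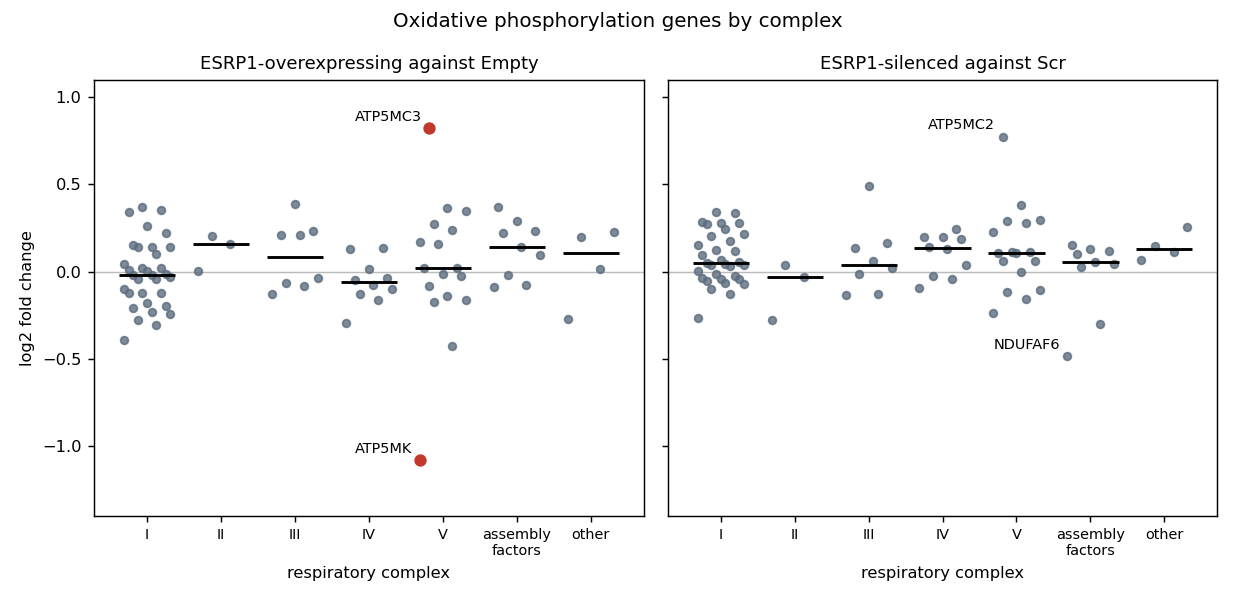
Each point is the log2 fold change (vertical axis) of 1 gene, grouped by respiratory complex, assembly factors and other genes (horizontal axis), with ESRP1-overexpressing against Empty on the left and ESRP1-silenced against Scr on the right; black lines are medians and red points are calls. Only ATP5MC3 and ATP5MK are red, both on the left, and the medians of all 5 complexes lie between -0.06 and 0.16 on both sides.

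In ESRP1-silenced against Scr cells few genes of the whole array passed the threshold. By limma 17 of the 10805 genes tested were called (0.157%), and 0 of the 84. At that share, 0 calls among 84 genes says little about these genes in particular. Before adjustment, 9 genes had a p under 0.05 (10.7%, 6 higher and 3 lower), beside 14.4% of all genes tested. The test and fold filter that the study's methods name also called 0, and the share of all genes they called is not given here. The median log2 fold change was 0.06 and 58 of the 84 genes (69.0%) had a positive value, beside a median of -0.02 and 47.2% for all genes. The median of the 84 genes ranged from 0.05 to 0.12 when 1 array was left out, with the highest value without Scr replicate 1. The 95% confidence interval stayed within 1.5-fold of no change for 70 of the 84 genes (83.3%) and for 53.3% of all genes.

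ATP5MC2 had the largest positive value under silencing. Its log2 level was 13.38 and 13.29 on the ESRP1-silenced arrays and 12.64 and 12.49 on the Scr arrays. Both ESRP1-silenced arrays were above the other 6 arrays. It was 1.71-fold higher in ESRP1-silenced cells, or 0.77 on the log2 scale (95% confidence interval 0.51 to 1.04), and its adjusted p of 0.082 from limma did not pass. A dimmer second probe of ATP5MC2, detected on the 4 arrays of this chip, gave 0.79 (standard error 0.31, adjusted p = 0.34). The other c subunit genes were ATP5MC1 at 0.23 (95% confidence interval -0.08 to 0.53) and ATP5MC3 at 0.29 (-0.14 to 0.72).

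NDUFAF6 had the lowest value. It was at 9.90 and 9.97 in ESRP1-silenced cells and at 10.41 and 10.43 in Scr cells, which did not overlap, and the log2 fold change was -0.49 (95% confidence interval -0.75 to -0.22, adjusted p = 0.17 from limma). ATP5MK was at 10.36 and 9.99 in ESRP1-silenced and 9.82 and 9.77 in Scr cells, a log2 fold change of 0.38 (adjusted p = 0.37).

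The complexes differed little from each other in this comparison. The medians were 0.05 for complex I, -0.03 for complex II, 0.04 for complex III, 0.13 for complex IV and 0.11 for complex V. Complex I ran from -0.27 for NDUFS1 to 0.34 for NDUFA3. In complex II, SDHD was the lowest at -0.28 (95% confidence interval -0.54 to -0.02, adjusted p = 0.34 from limma), with SDHA at 0.04 and SDHC at -0.03. A further SDHA probe, detected on all 8 arrays, gave 0.51 under silencing (95% confidence interval 0.14 to 0.88, adjusted p = 0.26), so the probes of SDHA disagree. In complex III, UQCR10, a small membrane subunit, was the highest at 0.49, with 12.34 and 12.02 in ESRP1-silenced and 11.81 and 11.57 in Scr cells, which did not overlap (adjusted p = 0.26). Its further probes gave 0.40 and 0.15. UQCRQ, which lies beside cytochrome b, was the lowest at -0.14. Complex IV ran from -0.10 for COX6C to 0.24 for COX6A1, and COX4I1, COX6B1, COX7A2 and COX7B lay between 0.14 and 0.20, with COX8A at -0.02. In complex V, ATP5ME was the lowest at -0.24, while its further probe gave 0.07. Among the assembly factors, COX7A2L, which takes part in joining complexes III and IV into supercomplexes, was the highest at 0.15.

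The comparisons share no arrays, and their difference was tested gene by gene as the log2 fold change of ESRP1-overexpressing against Empty minus that of ESRP1-silenced against Scr. This difference passed for 3 of the 84 genes (3.57%), close to the 3.52% of all genes tested that passed. ATP5MK differed by -1.46 (standard error 0.23, adjusted p = 0.025 from limma), with -1.08 under overexpression and 0.38 under silencing. ATP5MC2 differed by -0.94 (standard error 0.16, adjusted p = 0.031), with -0.17 under overexpression and 0.77 under silencing. NDUFAF6 differed by 0.86 (standard error 0.16, adjusted p = 0.041), with 0.37 under overexpression and -0.49 under silencing. Leaving out 1 array ended the call for ATP5MC2 and NDUFAF6 in all 8 cases (adjusted p 0.075 to 0.12 and 0.082 to 0.13). For ATP5MK it held only without Empty replicate 1 (-1.55, adjusted p = 0.049) or ESRP1-silenced replicate 2 (-1.65, adjusted p = 0.047), and was lost in the other 6 cases (adjusted p 0.064 to 0.10). Without a detection filter none of these 3 differences passed (adjusted p 0.076 for ATP5MK, 0.13 for ATP5MC2 and 0.16 for NDUFAF6). For ATP5MC3 the difference of 0.53 did not pass (adjusted p = 0.29).

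**Figure D5:**
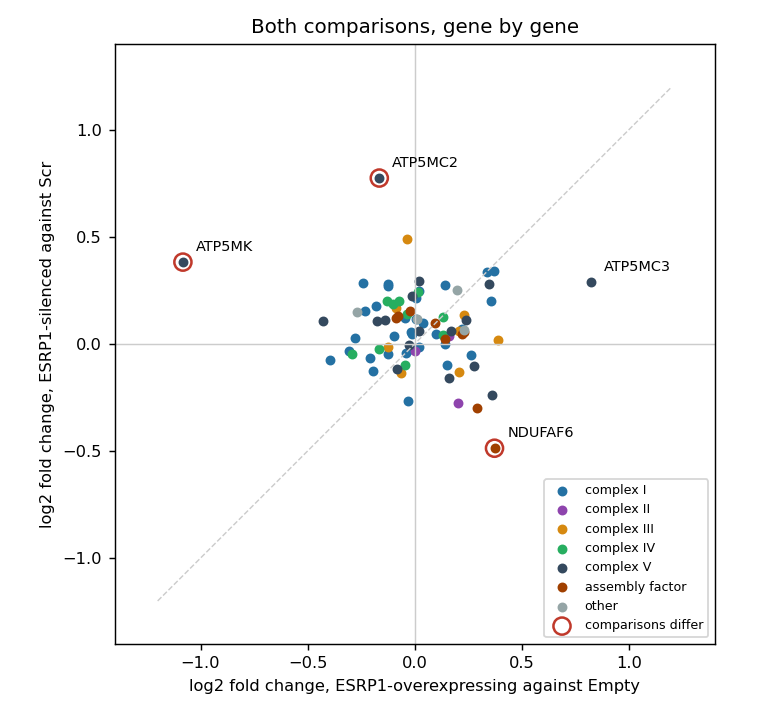
Each of the 84 genes is placed by its log2 fold change in ESRP1-overexpressing against Empty cells (horizontal axis) and in ESRP1-silenced against Scr cells (vertical axis), coloured by complex, with a ring where the comparisons differed past the threshold. ATP5MK and ATP5MC2 lie to the upper left and NDUFAF6 to the lower right, while most genes lie within 0.5 of 0 on both axes.

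Across the 4 groups the levels of these genes varied less than those of all genes, with a small shift between the chips. Their median deviation from each gene's mean over the 8 arrays was 0.018 to 0.077 on the ESRP1-overexpressing and Empty arrays. On the ESRP1-silenced and Scr arrays it was -0.12 to -0.0043. For all genes it was -0.014 to -0.0033 and 0.011 to 0.031. Among genes detected on all 8 arrays, the range of the 4 group means had a median of 0.35 on the log2 scale for 83 oxidative phosphorylation genes and 0.49 for all 8663 genes, and it was above 1 for 2 of the 83 (2.41%) and for 9.87% of all. The 2 genes were NDUFC2 and ATP5MK. NDUFC2, an accessory subunit of the membrane arm of complex I, was at 9.15 and 9.09 in ESRP1-overexpressing, 9.44 and 9.40 in Empty, 7.71 and 7.81 in ESRP1-silenced and 7.94 and 7.65 in Scr cells. The range of its group means was 1.66, and the mean of the 4 ESRP1-overexpressing and Empty arrays was 1.49 above that of the 4 ESRP1-silenced and Scr arrays. Chip and line cannot be told apart here. NDUFV3, which was not detected on 1 of the chips, has no exact range.

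For genes with more than 1 tested probe, the median difference between probes was below the median size of a change over all 84 genes. That size was 0.14 under overexpression and 0.12 under silencing, and the probe difference lay closer to it under silencing. The 27 further probes of 24 genes held 0 calls in either comparison, where 8.07% and 0.157% of all genes tested were called. For the 25 in each comparison that were detected, like the brightest probe, on all 4 of its arrays, the log2 fold changes differed from those of the brightest probe by a median of 0.08 in ESRP1-overexpressing against Empty cells and 0.09 in ESRP1-silenced against Scr cells. The largest differences were 0.39 for UQCR10 under overexpression and 0.47 for SDHA under silencing. For UQCR10 under overexpression the further probes gave -0.43 and -0.10 and the brightest -0.04.

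Of 103 genes that serve the pathway outside the symbol rule, 8 (7.77%) were called in ESRP1-overexpressing against Empty cells, close to the 8.07% of all genes tested. In ESRP1-silenced against Scr cells 0 were called, where 0.157% of all genes tested were. Of 44 further assembly factors, 3 rose and 1 fell (9.09%), and their median log2 fold change was -0.01. TMEM126B, which helps build the membrane arm of complex I, was at 13.51 and 13.37 in ESRP1-overexpressing and 12.69 and 12.82 in Empty cells (log2 fold change 0.68, adjusted p = 0.032 from limma). TTC19, which maintains complex III, rose by 0.62 (adjusted p = 0.034), and UQCC1, which assembles cytochrome b into complex III, rose by 0.48 (adjusted p = 0.040). COX14, a factor for making the catalytic COX1 subunit of complex IV, was at 10.81 and 10.87 in ESRP1-overexpressing and 11.53 and 11.36 in Empty cells and fell by 0.61 (adjusted p = 0.040). All 4 of these calls were lost in at least 6 of the 8 fits without 1 array.

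The counts of the next short lists stand beside the 8.07% of all genes tested that were called. Of 16 electron carriers and coenzyme Q genes, 1 rose (6.25%). ETFDH, which passes electrons from fatty acid oxidation to coenzyme Q, was at 8.46 and 8.19 in ESRP1-overexpressing and 7.13 and 7.41 in Empty cells, a rise of 1.06 (adjusted p = 0.016 from limma) that was called in 6 of the 8 fits without 1 array. Of 17 genes of the citric acid cycle and pyruvate dehydrogenase, 1 fell: IDH2, the mitochondrial NADP-linked isocitrate dehydrogenase, at 8.26 and 8.44 in ESRP1-overexpressing and 9.07 and 8.95 in Empty cells (log2 fold change -0.66, adjusted p = 0.029), a call that held in 2 of the 8 fits without 1 array. Of 6 carriers of nucleotides, phosphate and protons, 0 were called. The largest values there were 0.54 for UCP2, an uncoupling protein homologue (adjusted p = 0.051), and 0.43 for SLC25A4, an ADP/ATP carrier (adjusted p = 0.070). The 13 mitochondrially encoded subunits had no named probe and are not analysed here.

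Of 20 regulators of mitochondrial biogenesis, 2 rose, where 8.07% of all genes tested were called, while 13 of the 20 had a negative value and the median log2 fold change was -0.09. ESRRG, an orphan nuclear receptor that binds the ERR motif, had log2 levels of 7.11 and 7.65 in ESRP1-overexpressing cells and 5.31 and 5.20 in Empty cells, where it was not detected on either array. On the other chip it had 6.57 and 6.84 in ESRP1-silenced and 7.40 and 7.58 in Scr cells. Its level in ESRP1-overexpressing cells was at least 1.30-fold higher than in Empty cells. The fitted log2 fold change, which uses the undetected Empty values, was 2.12 (adjusted p = 0.0031 from limma). That call held in all 8 fits without 1 array and was lost in a fit of only the 4 arrays (adjusted p = 0.058). PPARGC1B, a coactivator of such receptors, had 7.82 and 8.15 in ESRP1-overexpressing and 6.94 and 6.50 in Empty cells. Again it was not detected on either Empty array, and it was at least 1.98-fold higher in ESRP1-overexpressing cells. Its fitted log2 fold change was 1.27 (adjusted p = 0.025 from limma). This call was lost without ESRP1-overexpressing replicate 1 (adjusted p = 0.070), ESRP1-overexpressing replicate 2 (0.11) or Empty replicate 2 (0.086), without a detection filter (0.059) and in a fit of only the 4 arrays (0.090). On the other chip PPARGC1B had 7.98 and 7.72 in ESRP1-silenced and 8.15 and 7.69 in Scr cells, which overlapped. TMEM126B, TTC19, ETFDH, ESRRG, PPARGC1B and ATP5MC3 were each lower on both Empty arrays than on the other 6. COX14, IDH2 and ATP5MK were each lower on both ESRP1-overexpressing arrays than on the other 6. All were named for a call between ESRP1-overexpressing and Empty cells, so the order of these groups was fixed by that choice. The ESRP1-silenced and Scr arrays lie on the other chip, where line and chip cannot be told apart. UQCC1, also called, is not placed here. The share of all called genes with either pattern was not computed.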

How the data were processed

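The authors deposited the intensity of each of 47322 probes as a mean signal that was not normalized, with a detection p-value that the authors' software set against negative control probes, in 8 arrays. A second table of deposited intensity values had been normalized by the authors between arrays, by a method not given in the sources used here, and served as an alternative. A comma form of the detection p-value in 88 cells was taken as 1. The neqc function of limma (version 3.58.1, under R 4.3.3) removed background by the detection p-values, added 16, quantile-normalized and took log2. The 18231 probes whose detection p was below 0.01 on 2 or more arrays were tested. Symbols are those of the platform annotation (1 symbol for 30113 probes, more than 1 for 8, none for 17201).

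One limma fit with 4 group means over all 8 arrays (4 residual and 2.8 prior degrees of freedom) gave two-sided p-values, adjusted by Benjamini-Hochberg over the tested probes, for ESRP1-overexpressing against Empty, ESRP1-silenced against Scr and the difference of these comparisons. Values over genes used the brightest probe of each gene. An exact permutation test of 2 against 2 arrays cannot go below p = 0.33 and was not used, and the number of arrays limits the precision. Where a probe was not detected in a group, the fold is a lower bound against the lowest detected level of each array. The p-value beside such a bound tests the fitted difference and not the bound. Alternatives changed the normalization (no background correction, separate chips, or the authors' values), the detection filter, the arrays in the fit (4 of them, or 1 left out), the variance prior (trended and robust), the block (replicate number), the test (the methods' t-test) or the choice of probes and symbols. The rule over older symbols was added after seeing the data.

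The members, their roles and the lists were chosen with earlier results of these data known. Genes were named where they were called in a comparison or in the difference, where they had the highest or lowest log2 fold change of a complex or of the assembly factors, as complex II subunits or complex IV isoforms, and, in each further list, where called (at most 4) or else as the 2 largest changes. NDUFC2, NDUFV3, ATP5MC1, ATP5MJ and UQCRB were named after their values were seen. SDHB, UQCRFS1 and the mitochondrially encoded subunits are not analysed here.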

Additional observations from a re-analysis of the deposited data

Results flagged for a closer look

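For 3 of the 84 oxidative phosphorylation genes, where 3.52% of all genes tested passed, the log2 fold change of ESRP1-overexpressing against Empty cells differed from that of ESRP1-silenced against Scr cells past the threshold (limma, adjusted over 18231 probes). The difference was -1.46 for ATP5MK, -0.94 for ATP5MC2 and 0.86 for NDUFAF6. With 1 array left out, ATP5MC2 and NDUFAF6 lost this call in all 8 fits and ATP5MK in 6 of 8. The same was found for ESRRG among the regulators of mitochondrial biogenesis, at 2.91 between fitted values, with no detected Empty array and 1 detected ESRP1-silenced array, and for the manipulated gene ESRP1, at 3.68, with no detected ESRP1-silenced array. ESRRG and ESRP1 kept this call when any 1 array was left out (highest adjusted p 0.047 and 0.022).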

How the results depend on the processing

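The count of genes called in ESRP1-overexpressing against Empty cells depended on the processing. It was 2 as reported, 4 by quantile normalization without background correction (UQCRC2 and ATP5MJ in addition), 5 on the authors' values, 1 without a detection filter, 0 in a fit of only the 4 arrays and 10 with a trended and robust prior (7 higher, 3 lower). The methods' t-test called 0 with its fold filter and 0 after Benjamini-Hochberg adjustment. For ESRP1-silenced against Scr cells the count of 0 became 1 without background correction, 1 on the authors' values and 1 with detection on all 8 arrays (ATP5MC2 each time), and 3 with the trended and robust prior (ATP5MC2, UQCR10 and NDUFAF6). The difference of the comparisons gave 0 calls without a detection filter and 7 with that prior, against 3. When 1 array was left out the counts were 0 to 1, 0 to 0 and 0 to 1 for overexpression, silencing and their difference. The causes of these shifts were not tested beyond the fewer arrays or probes that a setting used. The share of all genes called is not given here for any of the alternatives. Whether these counts differ from the rate over the whole array under the same setting was therefore not tested.

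With the replicate block 1 gene was called under overexpression (ATP5MK), 0 under silencing and 1 for the difference (ATP5MK). The replicate numbers did not pair the arrays, since deviations of same-numbered arrays correlated between -0.012 and 0.058.

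The median log2 fold change under silencing was 0.098 over every tested probe of the genes and 0.045 to 0.12 when 1 array was left out. ESRP1 kept its direction in all alternatives. Under overexpression it missed the threshold in the fit of 4 arrays (1.77, adjusted p = 0.057). Under silencing it did so without a detection filter, in the fit of 4 arrays and with the replicate block (-1.91 each, adjusted p 0.14, 0.10 and 0.12) and when 1 array was left out (-2.06 to -1.77).

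Of 1221 values of single named genes under alternatives, 1199 kept their sign. The other 22 belonged to changes of at most 0.072 in size. With 1 array left out, the values under overexpression were -0.16 to 0.16 for SDHC, -0.19 to 0.13 for NDUFS1, -0.085 to 0.011 for UQCR10, -0.14 to 0.019 for UQCRQ, -0.058 to 0.088 for COX6A1, -0.085 to 0.043 for COX7A2L and -0.10 to 0.028 for COX4I1. Under silencing they were -0.18 to 0.12 for SDHC, -0.070 to 0.10 for UQCRC2, -0.12 to 0.094 for CYC1, -0.22 to 0.13 for COX5A, -0.011 to 0.086 for SDHA, -0.072 to 0.023 for COX8A, -0.046 to 0.063 for TTC19 and -0.30 to 0.16 for PPARGC1B. SDHC under overexpression was also -0.0055 on the authors' values.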
